A study of Homo sapiens with 12 samples.

Results

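The genes described here are 39 genes of DNA replication and S phase, out of 56269 genes in a count table of 12 RNA-seq libraries from HEYA8, a human ovarian cancer cell line. They were taken as a list of known replication genes by symbol, with MCM5 as the marker, and the rule itself used no measured value. The members were nonetheless chosen with earlier results of these data known. The list held 12 helicase genes (MCM2 to MCM7, MCM10, CDC45 and GINS1 to GINS4), 4 licensing genes (ORC1, ORC6, CDC6, CDT1) and 15 synthesis genes (POLA1, POLA2, PRIM1, PRIM2, POLD1, POLE, POLE2, PCNA, RFC2, RFC3, RFC4, RFC5, RPA2, FEN1, LIG1). It also held 4 genes of nucleotide supply (RRM1, RRM2, TYMS, TK1), 3 of chromatin copying (UHRF1, CHAF1A, CHAF1B) and the transcription factor E2F1. All 39 passed the filter on low counts and were tested among 16069 genes.

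The study asked what the glycosaminoglycan (GAG) chains of betaglycan do. Betaglycan, the product of TGFBR3, is a co-receptor for TGF-β whose ectodomain carries heparan sulfate and chondroitin sulfate chains. Every group was HEYA8 carrying a pHIV-dTomato lentiviral backbone, sorted for dTomato and kept in RPMI-1640 with serum in what the labels call a resting state, with 3 libraries a group. The control vector, as labelled, carried no betaglycan construct, ∆GAG-BG carried betaglycan with serine to alanine changes at residues 534 and 545, S534A (CS-BG) carried the first change alone, and S545A (HS-BG) the other alone. The labels number the libraries of each group 1 to 3 and do not say whether they came from separate cultures, so the p-values measure the spread between libraries, which may be technical.

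Replication starts when ORC, CDC6 and CDT1 load the ring of MCM2 to MCM7 onto origins in G1. In S phase, CDC45 and the GINS proteins turn each ring into an active helicase, PCNA clamps the polymerases to DNA, FEN1 and LIG1 finish the lagging strand, and RRM2, TYMS and TK1 supply nucleotides. Many of these genes are transcribed around the G1/S boundary under E2F factors, so their mRNA level in a culture is widely used as a measure of how many cells are in or near S phase. In bulk RNA, fewer cells in S phase and less of these RNAs per cell cannot be told apart.

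Short sequence words that E2F factors are known to bind were common upstream of these genes. The words searched were TTTCCCGC, TTTCGCGC, TTTGCCGC and TTTGGCGC on either strand, from 250 bases before to 50 bases after each start in RefSeq (GRCh38.p14). Of the 39 genes, 35 matched a promoter in that table, all but MCM4, MCM5, GINS4 and RPA2. At least 1 word was present in 19 of the 35 (54.3%), against 3.33% of all 27305 promoters. The CCAAT word was present in 57.1% against 35.7%, and the GC box word GGGCGG in 71.4% against 44.6%. A match is a run of letters and does not show that a factor was bound. In the 100 bases before the start, 11 of the 35 held a whole word, and those bases are given for 6 of the 11, including CDT1 and E2F1, whose largest fold within a group was the smallest and the largest of the 39, with the E2F words in capitals.
MCM6, chr2:135876444-135876543, minus strand: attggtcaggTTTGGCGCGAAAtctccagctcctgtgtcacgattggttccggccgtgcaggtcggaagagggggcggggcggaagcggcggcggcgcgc
PCNA, chr20:5126623-5126722, minus strand: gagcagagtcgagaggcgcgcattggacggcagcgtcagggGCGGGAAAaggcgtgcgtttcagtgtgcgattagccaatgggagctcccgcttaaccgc
CDT1, chr16:88803689-88803788, plus strand: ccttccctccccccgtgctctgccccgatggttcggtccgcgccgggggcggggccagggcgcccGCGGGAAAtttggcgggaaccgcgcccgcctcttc
TYMS, chr18:657553-657652, plus strand: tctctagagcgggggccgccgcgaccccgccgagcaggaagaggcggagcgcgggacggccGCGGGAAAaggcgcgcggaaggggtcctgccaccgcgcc
UHRF1, chr19:4909401-4909500, plus strand: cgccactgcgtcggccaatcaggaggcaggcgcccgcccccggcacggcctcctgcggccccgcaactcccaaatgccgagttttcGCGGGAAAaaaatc
E2F1, chr20:33686386-33686485, minus strand: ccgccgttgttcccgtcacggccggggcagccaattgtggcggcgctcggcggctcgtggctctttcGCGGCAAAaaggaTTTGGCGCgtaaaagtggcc
In MCM6 the capitals are 2 words that overlap on opposite strands, and E2F1, which encodes an E2F factor itself, held 2 separate words. The CDT1 window held the word GCGGGAAA that the PCNA, TYMS and UHRF1 windows also held.

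The libraries held between 16410001 and 29504297 counts, and the 39 genes together took between 0.190% and 0.482% of them. Levels are given as CPM, the counts scaled to a common TMM library size, and fold changes and p-values are from edgeR. Each standard error (SE) was derived from that fit, as the absolute log2 fold change over the square root of the F statistic. The TGFBR3 transcript, present in each construct, went against some labels: it stood at 413 to 574 CPM in S534A and S545A, at 260, 20.3 and 21.4 CPM in the libraries labelled ∆GAG-BG 1, 2 and 3, and at 15.9, 259 and 259 CPM in those labelled control vector 1, 2 and 3. Directions that involve ∆GAG-BG or control vector are therefore for the libraries labelled so. The medians over the members are given also without ∆GAG-BG 2 and 3 and control vector 2 and 3, but the values of most single genes are not. Pairs of libraries of a group were compared by chi-square over all genes tested, divided by the degrees of freedom. Libraries 2 and 3 gave 1.398 in S545A, 1.95 in ∆GAG-BG and 1.43 in control vector, against 16.5 to 74.8 for the other pairs, and over the 39 genes they gave 1.46, 1.13 and 0.877. They were kept as separate libraries because they differed by more than sampling noise over all genes. That does not show that they came from separate cultures, and every SD, SE and p-value given here counts them as separate. Of the carcinoma markers, KRT8 stood at 688 to 1007 CPM and PAX8 at 193 to 295 CPM, while EPCAM did not pass 1.77 CPM and MUC16 had 0 counts. Of the markers of other cell types, PTPRC, CD68, COL1A2, DCN and ALB had at most 6 counts in any library and PECAM1, an endothelial marker, 4 to 17 counts. COL1A1, a stromal collagen, had 187 to 392 counts, and CDH5, an endothelial cadherin, stood at 168 to 431 CPM in every library.

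The 39 genes moved together from library to library, and libraries of the same group could lie far apart. As the mean over the genes of the deviation of log2 CPM from the average of the 12 libraries, S534A 1, 2 and 3 stood at 0.38, 0.56 and -0.01, and S545A 1, 2 and 3 at 0.22, -0.50 and -0.49. The libraries labelled ∆GAG-BG stood at -0.70, 0.27 and 0.26, and those labelled control vector at 0.38, -0.20 and -0.18. In each of S545A, ∆GAG-BG and control vector, library 1 therefore lay apart from a close pair of 2 and 3, above the pair in S545A and control vector and below it in ∆GAG-BG.

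**Figure D1:**
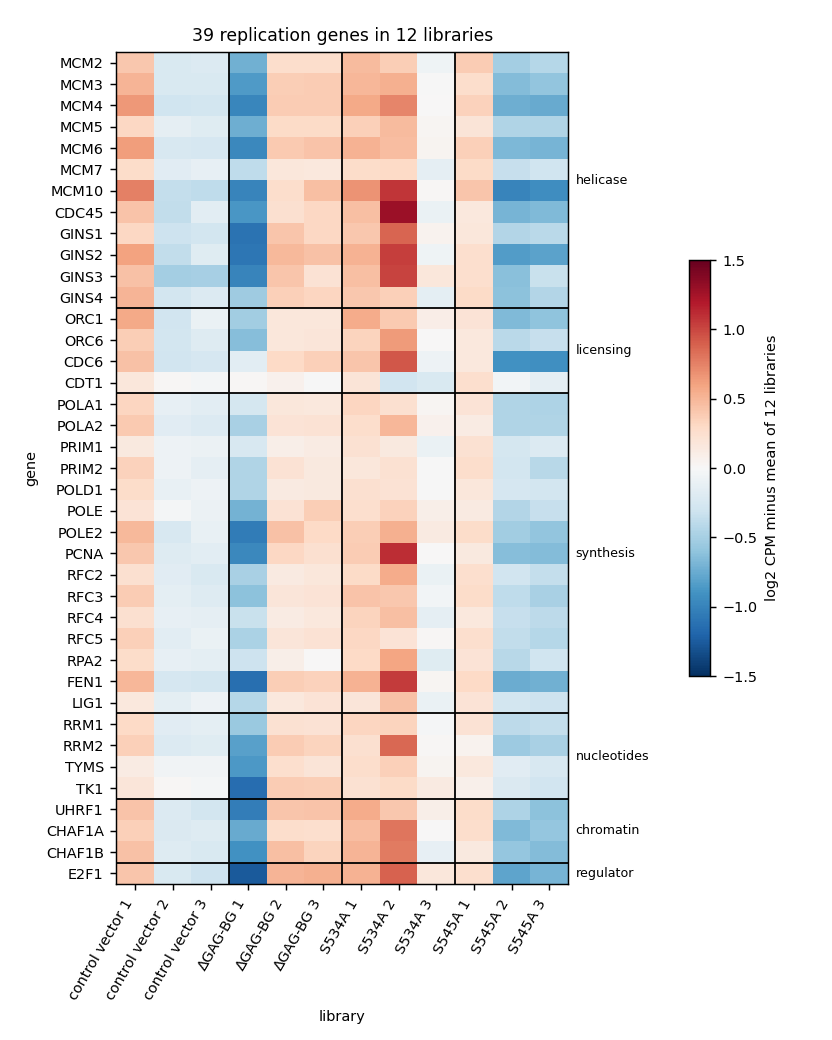
Each row is a gene, grouped by role, and each column a library. Colour is log2 CPM minus the mean of the 12 libraries for that gene, red above and blue below. Most columns have nearly the same colour from top to bottom, the ∆GAG-BG 1 column is the lowest for 31 of 39 genes, and CDT1 is pale throughout.

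Nearly every member took part in this pattern. S545A 1 was above S545A 2 and 3 for 39 of 39 genes (42.3% of all genes tested), and control vector 1 was above control vector 2 and 3 for 39 (40.2% of all genes). The library labelled ∆GAG-BG 1 was below ∆GAG-BG 2 and 3 for 38 (43.4% of all genes), and S534A 3 was below S534A 1 and 2 for 38 (34.4%). The lowest of all 12 values was in ∆GAG-BG 1 for 31 genes and the highest was in S534A 2 for 25 genes, where the shares of all genes were 15.99% and 26.1%. The SD of log2 CPM within groups had a median of 0.43 over the members and 0.21 over all genes tested, and 37 of the 39 lay above the latter. As a description over 12 libraries that share these groups and their depth, the correlation of a gene with the mean of the other members was over 0.8 for 38 genes and over 0.95 for 30.

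For MCM5, a subunit of the helicase ring, S534A held 174, 189.8 and 139 CPM and S545A held 156, 99.9 and 99.6 CPM. The libraries labelled ∆GAG-BG held 81.9, 167 and 166 CPM and those labelled control vector 169, 124 and 119.7 CPM. The groups overlapped in every comparison, since S545A 1 lay above S534A 3 and the lowest value of all was in ∆GAG-BG 1. The means were 168 ± 25.9 CPM in S534A, 119 ± 32.5 in S545A, 138 ± 48.9 in ∆GAG-BG and 137 ± 27.2 in control vector (SD, n = 3). MCM5 lies at chr22:35400063-35425430 on the plus strand (GRCh38).

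CDC45, which joins the ring to form the active helicase, showed the largest fold between group means of the 39 genes, 2.01. It held 24.1, 42.9 and 16.5 CPM in S534A, 19.6, 10.9 and 11.1 CPM in S545A, 9.61, 20.9 and 21.8 CPM in ∆GAG-BG and 23.7, 13.7 and 15.8 CPM in control vector. S534A 2 stood alone at the top, while S534A 1 was close to control vector 1 and S534A 3 lay among the libraries of the other groups. MCM4, another ring subunit and the helicase gene with the most CPM per kilobase, held 553, 622 and 375 CPM in S534A, 472, 225 and 220.3 CPM in S545A, 189, 485 and 485 CPM in ∆GAG-BG and 585, 302 and 307 CPM in control vector. Here too S545A 1 lay above S534A 3, and ∆GAG-BG 1 held the lowest value.

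Of the licensing genes, CDC6 held 97.7, 139.9 and 69.5 CPM in S534A and 81.8, 39.1 and 38.6 CPM in S545A. It held 65.6, 89.8 and 93.8 CPM in ∆GAG-BG and 99.3, 59.8 and 61.2 CPM in control vector. Its lowest values were therefore in S545A 2 and 3 and not in ∆GAG-BG 1. ORC1, the largest subunit of the origin recognition complex, held 29.3, 26.1 and 21.4 CPM in S534A and 22.9, 12.5 and 13.0 CPM in S545A.

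CDT1, the loading factor that is removed as S phase begins, was the exception among the 39. It held 73.2, 52.6 and 54.6 CPM in S534A, 76.5, 62.3 and 58.6 CPM in S545A, 64.7, 66.8 and 63.8 CPM in ∆GAG-BG and 72.3, 64.9 and 62.6 CPM in control vector. Its lowest value was in S534A 2, the library where most members were highest, and ∆GAG-BG 1 lay between ∆GAG-BG 2 and 3. The fold between its highest and lowest group mean was 1.11, the smallest of the 39, and its correlation with the mean of the other members was 0.17 over the 12 libraries. CDT1 lies at chr16:88803213-88809258 on the plus strand (GRCh38).

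**Figure D2:**
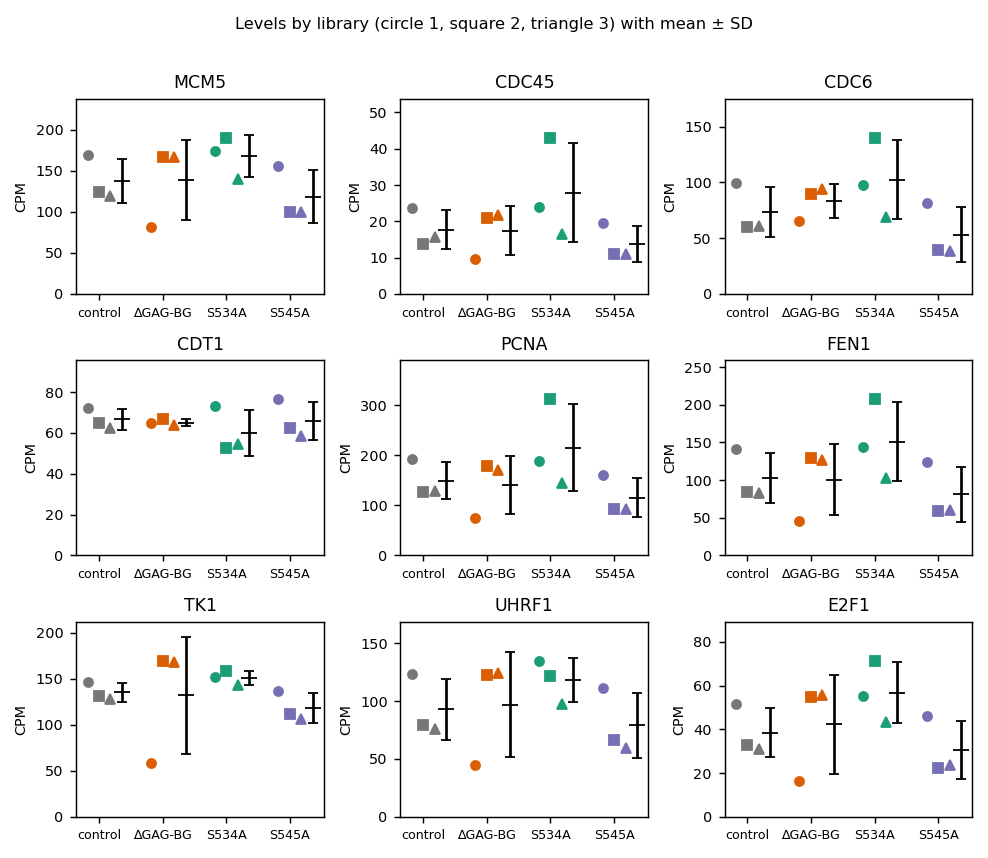
CPM on a linear axis from 0 in each library of the 4 groups for 9 genes, with circles for library 1, squares for 2 and triangles for 3. The bar beside each group is the mean ± SD (n = 3). In MCM5, CDC45, PCNA, FEN1, TK1, UHRF1 and E2F1 the ∆GAG-BG 1 circle lies at the bottom, and in CDT1 the groups lie within 52.6 to 76.5 CPM.

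Among the synthesis genes, PCNA, the sliding clamp, had the most CPM per kilobase of all members, 105, and GINS3 the least, 2.04. PCNA held 188, 312 and 145 CPM in S534A, 159.8, 93.1 and 91.8 CPM in S545A, 73.8, 179 and 171 CPM in ∆GAG-BG and 192, 127 and 129.5 CPM in control vector. FEN1, the flap endonuclease, had the widest range, 4.53-fold from 45.7 CPM in ∆GAG-BG 1 to 207 CPM in S534A 2. PRIM1, the catalytic subunit of primase, had the narrowest, 1.41-fold from 27.0 CPM in S545A 2 to 38.0 CPM in S534A 1. The libraries at either end of the range thus differed between these genes as well as its width. FEN1 shares 6.70% of its exon bases with TMEM258 on the opposite strand, and whether the counting used strand is not given in the sources used here.

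TK1, the thymidine kinase of the salvage pathway, held 152, 159 and 143 CPM in S534A and 136, 111 and 106 CPM in S545A. It held 59.0, 169.7 and 168 CPM in ∆GAG-BG and 147, 131 and 128 CPM in control vector. It was the only member without overlap between S534A and S545A, and also the gene with the most even S534A libraries, 1.11-fold apart. RRM2, the regulated subunit of ribonucleotide reductase, held 238, 366 and 203 CPM in S534A and 208, 138 and 143 CPM in S545A, so that S545A 1 lay above S534A 3. TYMS, thymidylate synthase, shares 18.8% of its exon bases with ENOSF1 on the opposite strand, and its level is uncertain to that extent.

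UHRF1, which guides methylation of newly copied DNA, held 135, 122 and 98.0 CPM in S534A, 111, 66.5 and 59.9 CPM in S545A, 44.6, 122 and 124 CPM in ∆GAG-BG and 124, 79.7 and 76.2 CPM in control vector. E2F1 held 55.3, 71.4 and 43.4 CPM in S534A, 46.0, 22.3 and 23.8 CPM in S545A, 16.2, 55.0 and 55.9 CPM in ∆GAG-BG and 51.6, 32.9 and 31.0 CPM in control vector. As for PCNA and FEN1, E2F1 was lowest in ∆GAG-BG 1 and highest in S534A 2. The fold of 3.45 inside ∆GAG-BG was the largest within-group fold of any member.

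No member differed between groups after adjustment. With Benjamini-Hochberg adjustment over all 16069 genes, edgeR called 0 of 39 members in each of the 6 pairwise comparisons, where it also called 0% of all genes. In the test for a difference among any of the 4 groups it called 0 members, where the share of all genes was 0.00622%, the single gene CHI3L2. At an unadjusted p under 0.05 that test gave 0 members, with 1.55% of all genes, while DESeq2 gave 2, with 1.48%. The largest fold between libraries of a group exceeded the fold between the highest and lowest group mean for 39 of 39 members, as it did for 98.1% of all genes tested. The group means nonetheless stood in a common order, with S534A highest and S545A lowest for 38 of the 39 (17.2% of all genes). CDT1 was the exception, highest in control vector and lowest in S534A. This order depended on the libraries labelled ∆GAG-BG 2 and 3 and control vector 2 and 3. Without them, 1 of the 39 had S534A highest and S545A lowest, with 3.89% of all genes, and 25 were highest in the single control vector library and 37 lowest in the single ∆GAG-BG library.

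For S545A against S534A, the single mutants, the fold changes of the members were nearly all negative, and none passed after adjustment. The median log2 fold change was -0.52, with a range from -1.01 to 0.13, and 38 of 39 were negative, while the median over all genes tested was -0.00024. CDC45 had the lowest value, -1.01 (SE 0.40), and MCM10, a factor that helps activate the helicase, had -1.00 (SE 0.48). CDC6 had -0.95 (SE 0.34, adjusted p = 0.702 by edgeR), PCNA -0.91 (SE 0.37), E2F1 -0.88 (SE 0.43) and MCM5 -0.50 (SE 0.27). CDT1 had 0.13 (SE 0.13). By role, the median was -0.65 for the helicase genes, -0.59 for the licensing genes, -0.41 for the synthesis genes, -0.36 for the nucleotide genes and -0.72 for the 3 chromatin genes.

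At an unadjusted p under 0.05, 7 of the 39 members were lower in S545A than in S534A and 0 were higher, where 4.78% of all genes tested passed in either direction and 2.68% were lower. The 7 were CDC6, CDC45, PCNA, ORC1, RRM2, CHAF1A and POLA2, and the groups overlapped for each of them. TK1 was the only member whose groups did not overlap, against 10.1% of all genes. The exact two-sided permutation test of its log2 CPM gave p = 0.1, the smallest that 3 against 3 libraries allow. Groups of 3 that do not overlap always give this value, so the test adds nothing to the lack of overlap. Single libraries decided the count of members at an unadjusted p under 0.05. It was 0 without S534A 2, without S545A 2 or without S545A 3, 4 without S534A 1, 19 without S534A 3 and 36 without S545A 1. The share of all genes was 1.76%, 1.73%, 1.68%, 6.77%, 15.8% and 11.96% in the same order. When libraries 2 and 3 were summed in every group but S534A it was 0, with 1.09% of all genes, and with only S534A and S545A in the model it was 19, with 3.80%. The median stayed between -0.74 and -0.39 when any of these 6 libraries was left out.

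**Figure D3:**
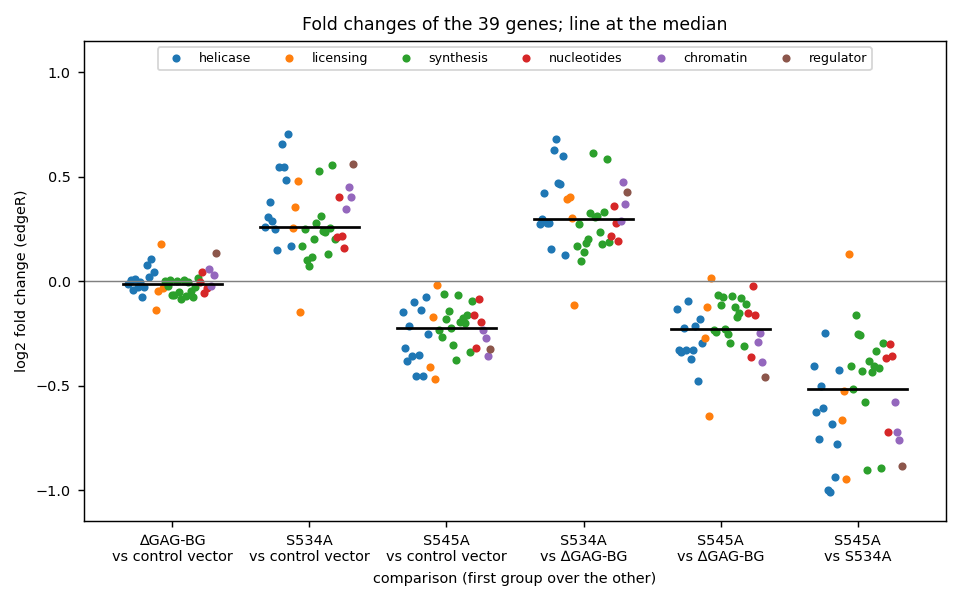
Each point is the edgeR log2 fold change of a gene, coloured by role, in the 6 comparisons, and the black line is the median of the 39 genes. The medians are -0.01, 0.26, -0.23, 0.30, -0.23 and -0.52 from left to right, and the licensing gene above 0 in the last column is CDT1.

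The comparison of ∆GAG-BG with control vector gave the smallest differences. The median over the members was -0.01, 15 were higher and 24 lower, and 0 had an unadjusted p under 0.05, with 0.871% of all genes. The groups overlapped for all 39, while 4.87% of all genes did not overlap. CDC6 had 0.18 (SE 0.33), E2F1 0.13 (SE 0.43), ORC1 -0.14 (SE 0.28), POLD1, the catalytic subunit of polymerase delta, -0.07 (SE 0.18) and MCM5 0.01 (SE 0.27). The value depended on the libraries used. With ∆GAG-BG 1 set against control vector 1 alone, the spread then coming from S534A and S545A, the median was -1.06 and 28 members passed an unadjusted p under 0.05, all lower, with 9.07% of all genes and 0 members after adjustment. With ∆GAG-BG 1 left out alone 1 member passed, with 2.49% of all genes.

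S534A lay above both of the other labels and S545A below, in comparisons that share the control vector or ∆GAG-BG libraries and so are not independent. Against control vector, the median was 0.26 in S534A with 38 of 39 positive, and -0.23 in S545A with 39 of 39 negative. Against ∆GAG-BG, it was 0.30 in S534A with 38 positive, and -0.23 in S545A with 38 negative. In each of the 4 comparisons 0 members had an unadjusted p under 0.05. The shares of all genes were 3.45% for S534A and 1.05% for S545A against control vector, and 2.99% for S534A and 1.10% for S545A against ∆GAG-BG. The groups overlapped for all members, where 7.65%, 8.82%, 5.66% and 5.05% of all genes did not overlap in the same order.

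CDT1 went against the median for S534A, with -0.15 (SE 0.13) against control vector and -0.11 (SE 0.13) against ∆GAG-BG, and for S545A against ∆GAG-BG, with 0.02 (SE 0.13). Against control vector, GINS3, a GINS subunit, had 0.70 (SE 0.38) and CDC45 0.65 (SE 0.39) in S534A, while ORC1 had -0.41 (SE 0.28) and CDC6 -0.47 (SE 0.33) in S545A. Against ∆GAG-BG, CDC45 had 0.68 (SE 0.40) and PCNA 0.61 (SE 0.37) in S534A, while CDC6 had -0.64 (SE 0.33) and POLA1, the catalytic subunit of polymerase alpha, -0.23 (SE 0.20) in S545A. GINS3 shares 10.9% of its exon bases with an opposite-strand gene that had 2 counts in all.

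Of these 4 medians, 2 turned sign and 2 grew when the libraries whose TGFBR3 level went against the label were left out. Without ∆GAG-BG 2 and 3 and control vector 2 and 3, the median against the single ∆GAG-BG library was 0.99 for S534A and 0.51 for S545A, the latter with its sign turned. Against the single control vector library it was -0.06 for S534A, its sign also turned, and -0.56 for S545A. The members at an unadjusted p under 0.05 were then 29, 3, 0 and 2, with 11.1%, 5.36%, 1.89% and 3.49% of all genes, and 0 after adjustment. In the same fit the S545A against S534A median stayed at -0.52 and 21 members passed, with 3.91% of all genes. Leaving out 1 library also moved these counts from 0. For S545A against ∆GAG-BG it was 8 without ∆GAG-BG 1, with 5.55% of all genes, and 3 without S545A 1, with 1.97%. For S545A against control vector it was 4 without S545A 1, with 2.64% of all genes. For S534A against ∆GAG-BG it was 3 without S534A 3, with 10.8% of all genes, and 1 without S534A 1, with 5.40%. For S534A against control vector it was 1 without S534A 1, without S534A 3 or without control vector 1, with 6.59%, 11.74% and 4.41% of all genes.

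Most other genes of the pathway followed the same libraries. They came from lists that left out the 39 but were chosen with earlier results of these data known. Over 34 other replication genes, the mean deviation of log2 CPM was 0.39 in S534A 2, -0.47 in ∆GAG-BG 1 and -0.32 in both S545A 2 and S545A 3. In S534A 2, 28 of the 34 were above their own mean, while 2 had their lowest value there. In ∆GAG-BG 1, 4 of the 34 were above their own mean. In S545A against S534A their median log2 fold change was -0.31, and 33 of 34 were negative, while 50.1% of all genes had a lower mean in S545A. Of the 34, 6 had an unadjusted p under 0.05, all lower, where 4.78% of all genes passed in either direction and 2.68% were lower. CLSPN, the checkpoint mediator claspin, was the lowest of them at -1.11 (SE 0.45), with 41.6, 67.3 and 27.2 CPM in S534A and 31.4, 15.97 and 15.92 CPM in S545A. Of 14 S phase regulators, 10 were above their own mean in S534A 2 and 3 were above it in ∆GAG-BG 1. E2F7, picked after its values were seen, went the other way, highest in ∆GAG-BG 1 (251 CPM) and lowest in S534A 2 (126 CPM). In S545A against S534A, 12 of the 14 were negative and 3 had an unadjusted p under 0.05, with the same 4.78% of all genes. The 3 were CCNE2, CCNE1 and CDC25A, of which CCNE1 and CDC25A were named after their values were seen. CCNE2, a cyclin of S phase entry, had -1.38 (SE 0.46) and held 14.5, 34.2 and 10.5 CPM in S534A against 11.1, 5.78 and 5.98 CPM in S545A. It was also the only gene of these lists with an unadjusted p under 0.05 for S534A against control vector, with 3.45% of all genes. Its log2 fold change there was 1.05 (SE 0.45), and control vector held 12.4, 7.59 and 8.61 CPM. The value without control vector 2 and 3 is not given here. None of the 34 and 14 genes passed after adjustment in any comparison by edgeR. How the counts of these lists change without single libraries was not examined.

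Genes of mitosis did not follow the replication genes in S534A 2. Over 20 mitosis genes the mean deviation of log2 CPM was -0.77 in S534A 2, where all 20 were below S534A 1 and 3, and the replication genes stood at 0.56 in that library. CCNB1, the mitotic cyclin B1, held 348, 121 and 318 CPM in S534A 1, 2 and 3, and was picked as an example after its values were seen. In ∆GAG-BG 1 the mitosis genes stood at -0.46, all 20 below ∆GAG-BG 2 and 3, so that both lists were low there. In S545A 2 and 3, where the replication genes stood at -0.50 and -0.49, the mitosis genes stood at 0.02 in each. Between S545A and S534A their median log2 fold change was 0.13, with 15 of 20 positive and 0 with an unadjusted p under 0.05 in any of the 6 comparisons. Over all genes tested, 50.1% had a lower mean in S545A. The mitosis genes stood at 0.15 in S534A 1, 0.13 in S534A 3 and 0.06 in S545A 1. By this mean only S534A 2 lay below the S545A libraries, and the median without S534A 2 is not given here. The part of the S534A 2 and ∆GAG-BG 1 libraries in the group differences was not tested beyond leaving them out.

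**Figure D4:**
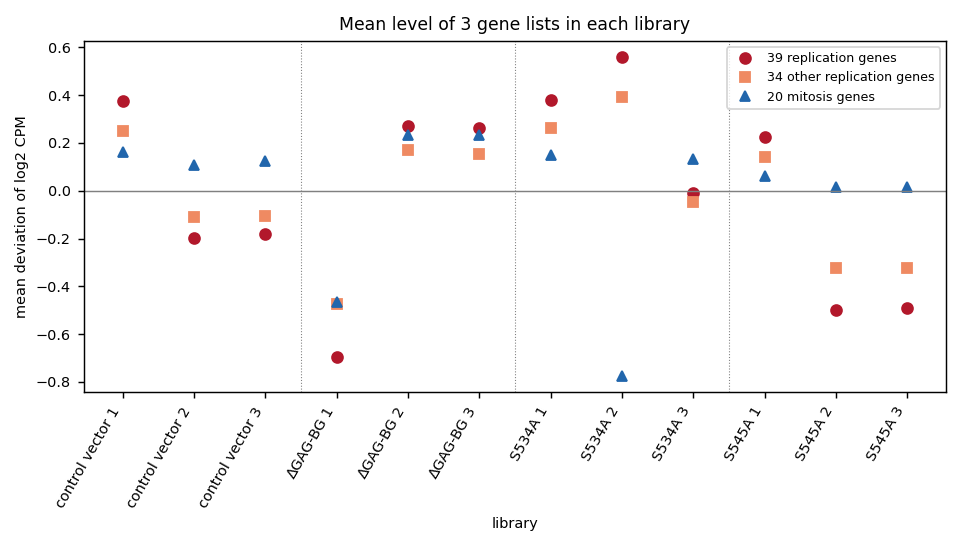
The mean deviation of log2 CPM from the 12-library average is shown in each library for the 39 replication genes (circles), 34 other replication genes (squares) and 20 mitosis genes (triangles). Circles and squares run together, and the triangle of S534A 2 lies at -0.77 while its circle lies at 0.56.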

How the data were processed

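HEYA8 total RNA was sequenced in 12 libraries (4 groups, 3 libraries each). The authors deposited raw counts per gene, and per the labels and the study's methods the reads were checked with FastQC, trimmed with Trim Galore 0.4.5, aligned with STAR 2.4, handled with SAMtools 1.2 and counted with featureCounts, with no strand setting given. The processing notes name a mouse build beside these tools, whereas the gene symbols and coordinates of the table are human (GRCh38). The deposited table also gives gene lengths, used here only for CPM per kilobase.

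Genes with enough counts by filterByExpr (minimum 10) were kept, 16069 of 56269. Counts were scaled by TMM and fitted with edgeR 4.0.16 (R 4.3.3, quasi-likelihood, robust) with a mean for each of the 4 groups (8 degrees of freedom left for the spread), and p-values were adjusted by Benjamini-Hochberg over all genes tested. The common biological coefficient of variation was 0.163. No row was blank or a summary. The script was tested on simulated data. Alternatives were limma-voom (limma 3.58.1), no filter, DESeq2 1.42.0, scaling by library size or by RLE factors, a fit of the compared groups alone, replicate numbers as blocks, leaving out each library, summing libraries 2 and 3, and, chosen after seeing the data, leaving out 4 libraries whose TGFBR3 level went against the label.

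The members, roles and lists were chosen with earlier results of these data known. Genes were named by a rule: MCM5, the member of each role with the most CPM per kilobase, the members with the smallest p in each direction of each comparison (at most 2), pathway genes with an unadjusted p under 0.05 (at most 2 a comparison), and the widest and narrowest members. Other names are examples.

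Replicate numbers were checked for pairing by the correlation of deviations from the group means. For S545A against control vector the 3 pairs gave 0.60, 0.30 and 0.29, but the labels state no pairing and the main fit used no block. With replicate numbers as blocks, 0 genes passed after adjustment in that comparison. The main fit also gave 0 there, so this could show no call lost. At least 1 pair was under 0.1 in each other comparison.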

Additional observations from a re-analysis of the deposited data

How the results depend on the processing

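Over all alternatives, 0 members passed after adjustment in any comparison, and the lowest count of any member in a library was 108. The counts at an unadjusted p under 0.05 changed. The share of all genes passing in the same fit is given in parentheses. With DESeq2 they were 1 for S545A against ∆GAG-BG (0.653%), 11 for S545A against S534A (4.63%) and 2 for any group (1.48%), and with limma-voom 1 (1.10%) and 11 (5.81%) for the same pair of comparisons. For S545A against S534A the count was 1 with no filter (3.80%), 19 with only the groups compared (3.80%) and 0 with libraries 2 and 3 summed (1.09%). With the replicate block, in comparisons whose libraries share only a number, it was 4 for S545A against S534A (4.65%) and 1 for S545A against ∆GAG-BG (1.26%). Without 1 library the counts ran from 0 to 36 for S545A against S534A, 0 to 8 for S545A against ∆GAG-BG, 0 to 4 for S545A against control vector, 0 to 3 for S534A against ∆GAG-BG, 0 to 1 for S534A against control vector and for ∆GAG-BG against control vector, and 0 to 5 for any group (2.56% at the highest). The shares for the other counts without 1 library stand with the comparisons. In the fit without ∆GAG-BG 2 and 3 and control vector 2 and 3, where the lone libraries are assumed to vary like the other groups, the counts were 28 for ∆GAG-BG against control vector, 29 and 3 for S534A and S545A against ∆GAG-BG, 2 for S545A against control vector, 21 for S545A against S534A and 20 for any group (5.62%), and the medians were -1.06, 0.99, 0.51 and -0.56 for the first 4 of these and -0.06, with its sign turned, for S534A against control vector. In that fit MCM5, CDC6 and E2F1 turned to -1.06, -0.61 and -1.69 for ∆GAG-BG against control vector, MCM5 and POLA1 to 0.53 and 0.063 for S545A against ∆GAG-BG, and MCM5 to -0.025 for S534A against control vector. The small log2 fold changes of ∆GAG-BG against control vector turned sign elsewhere too: MCM5 to -0.0038 with no filter, -0.046 with limma-voom and -0.23 summed, E2F1 to -0.038 with limma-voom and -0.22 summed, and CDC6 to -0.029 summed. Without 1 library they ran from -0.15 to 0.27 for MCM5, -0.12 to 0.51 for E2F1, -0.30 to 0.16 for ORC1 and -0.17 to 0.097 for POLD1. For S545A against ∆GAG-BG, MCM5 turned to 0.043 summed, and CDT1 ran from -0.10 to 0.093 without 1 library. The cause of these turns was not tested.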

Other observations

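HSPA5, which is in none of the lists, and CDKN1A, from the list of S phase regulators, stood apart in S534A 2 and ∆GAG-BG 1. Both were picked for this section after their values were seen. HSPA5, the chaperone of the endoplasmic reticulum, held 1250, 287 and 1985 CPM in S534A, 1273, 2596 and 2628 CPM in S545A, 11864, 1256 and 1228 CPM in ∆GAG-BG and 1290.4, 3878 and 3906 CPM in control vector. It was highest in ∆GAG-BG 1, where the mean over the 39 replication genes was lowest, and lowest in S534A 2, where that mean was highest. Of the 39 genes, 31 were lowest in ∆GAG-BG 1 and 25 were highest in S534A 2. CDKN1A, the p21 inhibitor of cyclin-dependent kinases, held 435.9 CPM in S534A 2, 328 CPM in ∆GAG-BG 1 and from 220.0 to 301 CPM in the other libraries. How these values relate to the replication genes was not tested.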
